A study of Mus musculus with 18 samples.

Results

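Polycomb repressive complex 2 (PRC2) subunits were followed in mouse embryonic stem cells (ESCs) and in the epiblast-like cells (EpiLCs) derived from them. The members were 10 genes chosen by name, 5 of the core complex (Ezh2, Ezh1, Eed, Suz12 and Rbbp7), 3 accessory subunits of PRC2.1 (Mtf2, Phf1 and Phf19) and 2 of PRC2.2 (Jarid2 and Aebp2). All 10 were measured in both cell types, among 13104 genes in ESCs and 13717 in EpiLCs, and all 10 passed the filter on low counts. RNA was sequenced from 12 libraries, 3 biological replicates of each cell type and exposure. Exposed cells received Δ9-tetrahydrocannabinol (Δ9-THC), the main psychoactive compound of cannabis, at 100 nM, and vehicle cells received its solvent, ethanol, alone. The exposure was continuous, so that exposed EpiLCs came from exposed ESCs. All cells carried the Blimp1::mVenus and Stella::ECFP reporters of germline genes. The study used a female and a male clone, with female ESCs as its main line, and the labels of these libraries name no clone. ESCs were kept in 2i+LIF medium, and EpiLCs were induced from them with activin A and basic fibroblast growth factor.

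PRC2 is the enzyme complex that methylates histone H3 at lysine 27, and its trimethylated product H3K27me3 marks silent developmental genes in pluripotent cells. EZH2 or its paralog EZH1 carries the catalytic SET domain, EED reads the mark and stimulates the enzyme, SUZ12 holds the complex together, and RBBP7 or its paralog RBBP4 binds histones. Accessory subunits bind SUZ12 in alternative assemblies and help to bring the complex to CpG islands and chromatin. ESCs survive without PRC2, but their differentiation is impaired.

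By the GENCODE annotation of GRCm38, Ezh2 (ENSMUSG00000029687) spans chr6:47530139-47595341 on the minus strand and Ezh1 (ENSMUSG00000006920) chr11:101191115-101226463 on the minus strand. Suz12 (ENSMUSG00000017548) lies on the same chromosome as Ezh1, at chr11:79993106-80034123 on the plus strand, and Mtf2 (ENSMUSG00000029267) at chr5:108065674-108109004 on the plus strand. Rbbp7 is the single X-linked member.

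The promoters of the members were examined because genes of the core complex are known targets of E2F factors, the regulators of S-phase genes. RefSeq windows of 300 bases on GRCm38.p6, from 250 bases before a transcription start to 50 after it, were matched to all 10 members by symbol and gave 14 windows. Each window was searched on both strands for the E2F octamers TTTCCCGC, TTTCGCGC, TTTGCCGC and TTTGGCGC. An octamer was held by 3 of the 14 windows, those of Ezh2, Suz12 and Phf19. Of all 32851 RefSeq windows, 2.26% held one. The letters CCAAT occurred on either strand in windows of 7 members and in 37.4% of all windows, and TATAAA in windows of 1 member and in 13.6% of all windows. These counts are of members, which can have more than 1 window, so they are not on the scale of the shares of windows. The members' windows held between 2 and 41 CpG dinucleotides, against a median of 7 over all windows. These matches describe the sequence and say nothing of which factors bound there. The windows of the 3 members with an octamer, and of Ezh1, the paralog of Ezh2 without one, are shown 5′ to 3′ along the gene, down to 20 bases after the start, with the octamer in capitals.
Ezh2, chr6:47595011-47595280, minus strand: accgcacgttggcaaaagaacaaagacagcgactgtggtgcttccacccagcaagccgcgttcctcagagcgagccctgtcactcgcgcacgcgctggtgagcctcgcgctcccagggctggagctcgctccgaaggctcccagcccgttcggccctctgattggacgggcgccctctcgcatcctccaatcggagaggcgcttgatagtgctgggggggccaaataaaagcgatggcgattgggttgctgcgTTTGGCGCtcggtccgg
Suz12, chr11:79992856-79993125, plus strand: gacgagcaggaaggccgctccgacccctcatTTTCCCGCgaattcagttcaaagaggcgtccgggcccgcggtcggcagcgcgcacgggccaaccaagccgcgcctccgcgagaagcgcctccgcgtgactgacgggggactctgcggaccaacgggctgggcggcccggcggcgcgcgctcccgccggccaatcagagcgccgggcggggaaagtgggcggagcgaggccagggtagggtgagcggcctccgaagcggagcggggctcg
Phf19, chr2:34913957-34914226, minus strand: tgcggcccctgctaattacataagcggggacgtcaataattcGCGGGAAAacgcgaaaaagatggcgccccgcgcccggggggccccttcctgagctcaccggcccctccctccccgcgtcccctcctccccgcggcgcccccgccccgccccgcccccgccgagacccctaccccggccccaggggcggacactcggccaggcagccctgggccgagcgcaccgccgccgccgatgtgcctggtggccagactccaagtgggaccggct
Ezh1, chr11:101226444-101226713, minus strand: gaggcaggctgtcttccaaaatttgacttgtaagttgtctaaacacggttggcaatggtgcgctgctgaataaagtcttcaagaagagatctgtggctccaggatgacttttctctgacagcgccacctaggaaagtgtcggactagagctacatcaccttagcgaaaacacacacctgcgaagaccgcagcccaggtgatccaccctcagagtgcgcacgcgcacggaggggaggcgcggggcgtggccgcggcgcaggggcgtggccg
The octamer of Ezh2 lies just downstream of its start, whereas those of Suz12 and Phf19 lie near the far end of the window.

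The total of adjusted counts ranged from 23427551 to 32096698 over the 12 libraries. The 9 markers of naive pluripotency were each higher in all ESC than in all EpiLC libraries, with Esrrb between 818 and 896 CPM (counts scaled to the size of the library) in ESCs and between 24.4 and 38.7 CPM in EpiLCs. Of the 8 markers of the formative or primed state, Fgf5 was measured in EpiLCs alone, Fst overlapped between the cell types, and the other 6 were higher in all EpiLC libraries, Dnmt3b at 766 to 1078 CPM against 72.4 to 79.4 CPM in ESCs. Same-numbered vehicle and Δ9-THC libraries deviated from their group means as mirror images. Across all genes the correlation of these deviations lay between -0.99 and -0.98 for the same-numbered pairs and between 0.22 and 0.70 for the other pairs. Among the members, 29 of 30 deviations in ESCs and 30 of 30 in EpiLCs had opposite signs. The libraries of a comparison therefore did not vary independently of each other, although the tests below assume that they did. For every member in both cell types, the standard error was larger with the replicate number as a block.

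Levels of different genes were first compared in vehicle libraries as CPM per kb of exon. The order depends on the length used. Ezh2 has 6678 bases of summed exon and 2787 in its longest transcript, and Jarid2 has 9715 and 8353. The order was not recomputed with the longest transcripts. In ESCs the histone-binding subunit Rbbp7 was highest at 178 ± 4.21 CPM per kb (SD, n = 3). The scaffold Suz12 followed at 93.9 ± 5.61, the PRC2.1 subunit Mtf2 at 66.0 ± 3.13 and Eed at 52.2 ± 0.943 CPM per kb. Ezh2 reached 36.4 ± 0.929 and Jarid2, which recruits PRC2.2, 32.3 ± 0.573 CPM per kb. The zinc-finger subunit Aebp2 was lower at 10.97 ± 0.227 CPM per kb, and the catalytic paralog Ezh1 stood at 5.30 ± 0.236 CPM per kb. The PRC2.1 subunits Phf19 and Phf1, relatives of Mtf2 that read methylated histone H3, were lowest at 1.24 ± 0.0757 and 0.695 ± 0.0715 CPM per kb. No neighbours in this order overlapped in ESCs. Mtf2 thus supplied nearly all transcripts of the 3 PRC2.1 accessory genes in these cells.

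In vehicle EpiLCs Rbbp7 was again highest at 160 ± 27.3 CPM per kb, and Suz12 was next at 41.7 ± 5.25 CPM per kb. By summed exon length, Ezh2, Jarid2, Eed and Mtf2 lay close together at 35.2 ± 1.81, 31.5 ± 4.87, 28.6 ± 4.12 and 28.1 ± 2.06 CPM per kb. Each of these overlapped its neighbour in the order. Aebp2, Ezh1, Phf19 and Phf1 kept the same order as in ESCs, at 7.66 ± 0.457, 5.18 ± 0.227, 1.95 ± 0.166 and 1.06 ± 0.299 CPM per kb.

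**Figure D1:**
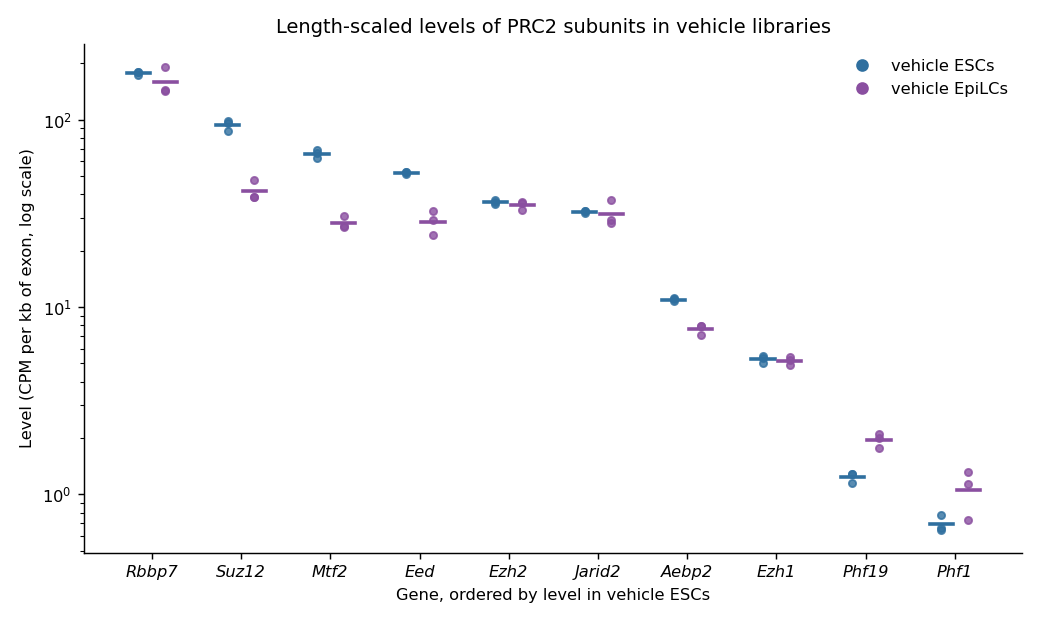
Level of each PRC2 subunit in vehicle libraries, as CPM per kb of exon on a log scale, with 1 point per library and a line at the mean of 3 libraries, ESCs in blue and EpiLCs in purple. Suz12, Mtf2, Eed and Aebp2 are lower in every vehicle EpiLC library than in every vehicle ESC library, while the Ezh2, Ezh1 and Jarid2 points overlap.

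The cell types were compared as a description without a test, because the authors adjusted the counts of each in a separate table. Of the 10 members, 4 were lower in all 6 EpiLC than in all 6 ESC libraries (31.5% of the 12410 genes of both tables were) and 1 was higher (29.2% of genes), while 5 overlapped. Vehicle ESCs held 2.35-fold more Mtf2 than vehicle EpiLCs, at 376 ± 17.8 against 160 ± 11.8 CPM. Suz12 was 2.25-fold higher in vehicle ESCs, at 464 ± 27.8 against 206 ± 26.0 CPM. Eed was 1.82-fold higher at 199.7 ± 3.61 against 109 ± 15.8 CPM, and Aebp2 1.43-fold higher at 108 ± 2.23 against 75.4 ± 4.50 CPM. The core subunits that bind EZH2, the scaffold and the reader of the mark, were thus both lower in EpiLCs, while Ezh2 itself stood at 243 ± 6.20 CPM in ESCs and 235 ± 12.1 CPM in EpiLCs. Phf19 went the other way and was 1.57-fold higher in vehicle EpiLCs, at 9.82 ± 0.839 against 6.27 ± 0.382 CPM. The ratios in Δ9-THC libraries were near those in vehicle, at 2.30-fold for Mtf2, 2.26-fold for Suz12, 2.04-fold for Eed and 1.59-fold for Aebp2. Fewer cells of a type and less RNA per cell cannot be told apart in such bulk samples.

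The spread between EpiLC replicates was wider than between ESC replicates for part of the complex. The coefficient of variation of vehicle libraries was 17.1% in EpiLCs and 2.37% in ESCs for Rbbp7, 15.4% and 1.78% for Jarid2, and 14.4% and 1.81% for Eed. Vehicle replicate 2 was the highest vehicle EpiLC library for 7 members, and Δ9-THC replicate 2 was the lowest exposed one for 6 of the same members, Ezh1, Eed, Suz12, Rbbp7, Phf19 and Jarid2. Ezh2 and Phf1 had the opposite pattern in these libraries. Across all genes, the deviations of these same-numbered libraries were also mirror images (correlation -0.98). A gene high in the vehicle library thus tended to be low in the exposed one. Neither the spreads nor these ranks were set beside those of all genes, so they are not particular to the members.

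**Figure D2:**
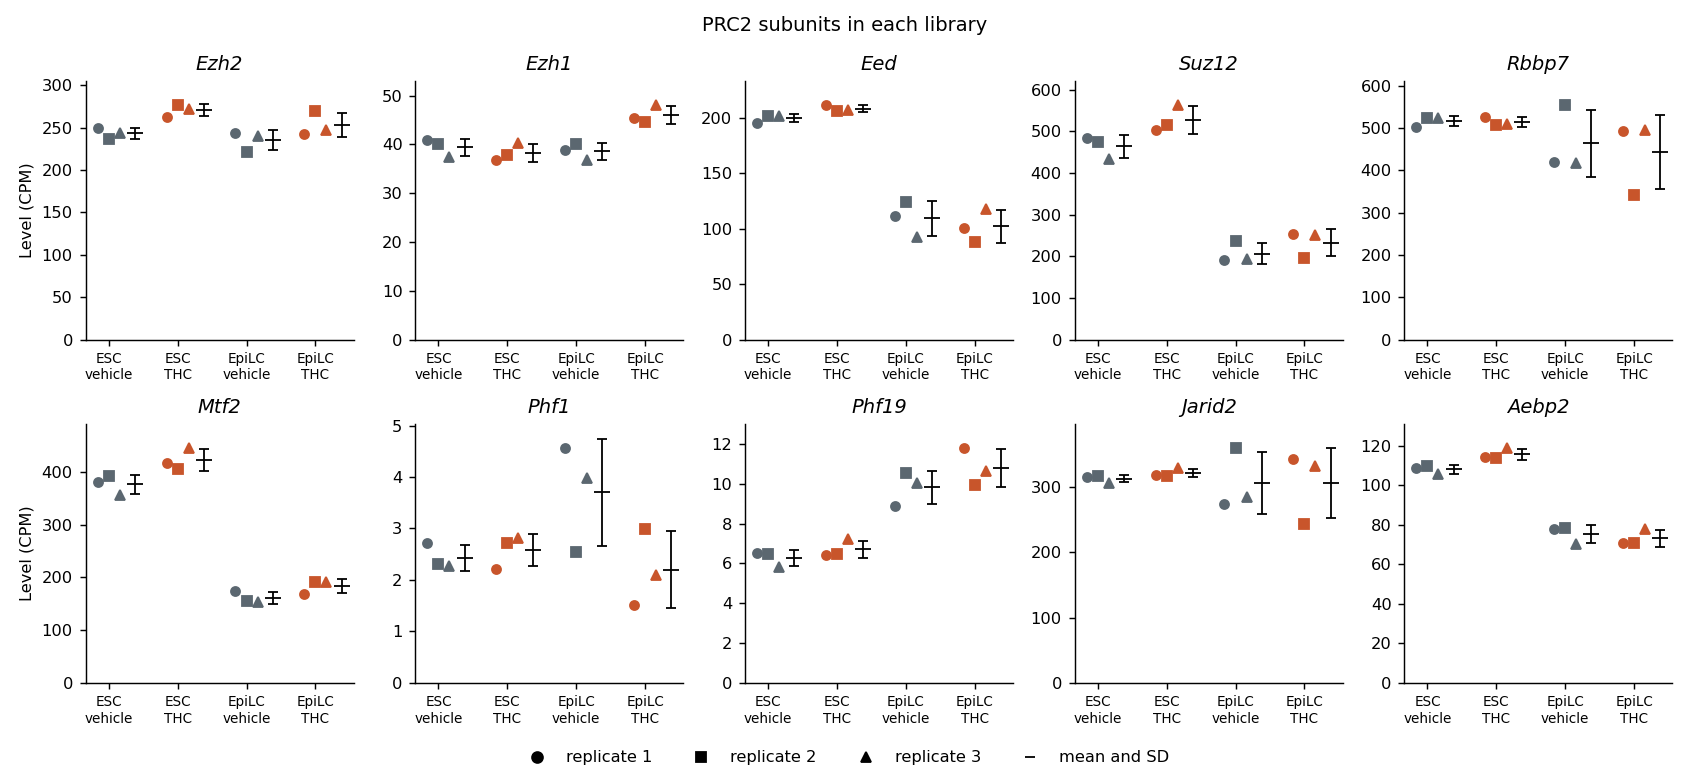
Level of each PRC2 subunit in CPM in every library, with 1 symbol per library shaped by replicate number, grey for vehicle and orange for Δ9-THC, and the mean and SD of 3 libraries beside each group. Exposed ESC libraries lie above all vehicle ESC libraries for 6 members, and Ezh1 is the single member with such a separation in EpiLCs.

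Exposure to Δ9-THC was then compared with vehicle in ESCs. The catalytic subunit Ezh2 rose by 11.2%, and the other 9 members did not pass the test. Of the 10 members, 1 was called by the quasi-likelihood test of edgeR (p-values adjusted by Benjamini-Hochberg, threshold 0.05), whereas 6.91% of all 13104 genes were called, 3.37% as higher. In 6 members all 3 exposed libraries lay above all 3 vehicle libraries, a separation found for 16.7% of all genes, and no member separated in the other direction. An unadjusted p under 0.05 was reached by 4 of 10 members and by 28.7% of all genes. The median log2(fold-change) of the members was 0.091, against 0.0041 for all genes.

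Ezh2 stood at 249, 237 and 243 CPM in vehicle ESCs and at 263, 277 and 272 CPM in exposed ESCs. Every exposed library was above every vehicle library. The log2(fold-change) was 0.15 (SE 0.032), with a 95% confidence interval of 5.39% to 17.3% higher and an adjusted p-value of 0.0452 (edgeR). The call held with DESeq2 (adjusted p-value 0.0311) and, in edgeR, with RLE scaling (adjusted p-value 0.0455) and with other filters on low counts. It did not hold in the following fits. The adjusted p-value lay between 0.0721 and 0.147 when any 1 of the 6 libraries was left out, settings under which at most 1 gene of all was called. With the replicate number as a block the log2(fold-change) was again 0.15, with an SE of 0.064 and an adjusted p-value of 0.429 (edgeR). With offsets for GC content and length the log2(fold-change) was 0.091 and the adjusted p-value of edgeR 0.249.

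Its paralog Ezh1, which forms PRC2 of lower enzymatic activity, stood at 40.9, 40.0 and 37.5 CPM in vehicle ESCs and at 36.7, 37.8 and 40.4 CPM in exposed ESCs. These groups overlapped, and the log2(fold-change) of -0.043 had an interval from -10.9% to 5.71%.

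The scaffold Suz12 stood at 485, 476 and 433 CPM in vehicle ESCs and at 503, 515 and 565 CPM in exposed ESCs. All exposed libraries were above the vehicle libraries, but the log2(fold-change) of 0.18 (SE 0.060) had an adjusted p-value of 0.106 with edgeR. Mtf2, which recruits PRC2.1 to unmethylated CpG-rich DNA, stood at 381, 392 and 357 CPM with vehicle and at 416, 405 and 446 CPM with Δ9-THC. Its groups did not overlap either, with a log2(fold-change) of 0.17 (SE 0.050) and an adjusted p-value of 0.0882 (edgeR). DESeq2, run as an alternative, called Ezh2, Suz12 and Mtf2 with adjusted p-values of 0.0311, 0.0464 and 0.0491, and 7.19% of the genes it tested.

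Aebp2 stood at 109, 109.7 and 106 CPM in vehicle ESCs (108 ± 2.23) and at 116 ± 2.78 CPM in exposed ESCs, without overlap, and its log2(fold-change) of 0.099 (SE 0.031) had an adjusted p-value of 0.0946 (edgeR). Eed and Jarid2 also separated by exposure, with log2(fold-change) values of 0.062 and 0.038 and intervals from -0.097% to 9.13% and from -1.99% to 7.60%. Rbbp7 was close to level, at 517 ± 12.3 CPM with vehicle and 514 ± 10.97 CPM with Δ9-THC, and its interval ran from -5.36% to 4.67%. The scarce subunits Phf19 and Phf1 overlapped between exposures, with log2(fold-change) values of 0.094 and 0.088. Phf1 was covered by 53 to 89 counts per ESC library, so that a change of the size seen for Ezh2 lay well inside its interval of -14.0% to 31.3%.

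**Figure D3:**
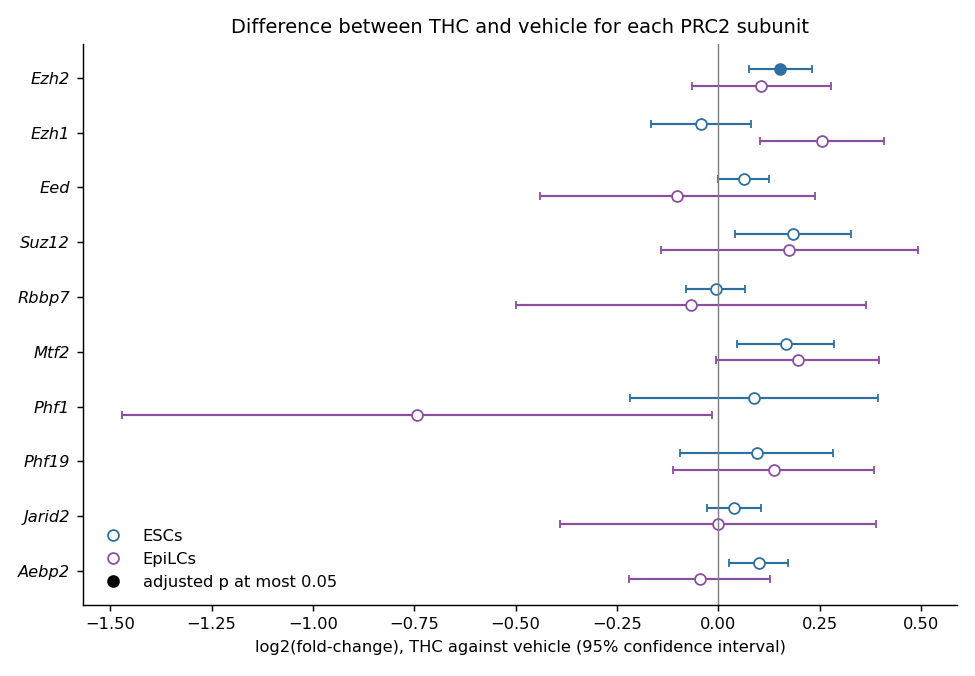
The log2(fold-change) of Δ9-THC against vehicle for each PRC2 subunit, with 95% confidence intervals from edgeR, ESCs in blue and EpiLCs in purple, and filled points for an adjusted p-value of at most 0.05. Ezh2 in ESCs, at 0.15, is the single filled point, and Phf1 in EpiLCs has the widest interval.

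Differences in ESCs moved with the base composition of genes. Across 13083 genes the log2(fold-change) decreased with the GC content of each gene's longest transcript (Spearman's rho -0.54, given as a description since genes share libraries), and 7 of the 10 members had a GC content under the median of 49.7%. With offsets that removed the trend with GC content and length, 6 members remained above 0 with a median of 0.037, Mtf2 stood at -0.0054 and Aebp2 at -0.013, and no member was called. The difference of Suz12 was 0.071 with the offsets. Markers of cell state were compared in the same libraries. The summed level of the 9 naive markers ranged from 4426 to 4742 CPM with vehicle and from 4356 to 4657 CPM with Δ9-THC, and 0 of 9 were called by edgeR (3 at an unadjusted p under 0.05). Of the 7 formative markers measured in ESCs, 2 were called lower, Pou3f1 at 3.83 ± 0.234 against 1.97 ± 0.185 CPM and Sox3 at 3.99 ± 0.246 against 3.02 ± 0.193 CPM, which were named after their values were seen. Their GC contents were 63.9% and 66.4%, and with the offsets neither was called (log2(fold-change) -0.74 and -0.14, adjusted p-values 0.0814 and 0.536, edgeR). The sums of the measured primitive endoderm, mesendoderm and 2-cell-like markers reached at most 23.3 CPM in any ESC library. The 2 measured 2-cell-like markers, Zscan4c and Zscan4d, summed to 2.07 to 2.74 CPM with vehicle and to 2.74 to 3.48 CPM with Δ9-THC, and Pou5f1 and Sox2, which both cell types express, to 725 to 783 and to 666 to 716 CPM. The part of such shifts in the differences of the members was not tested.

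**Figure D4:**
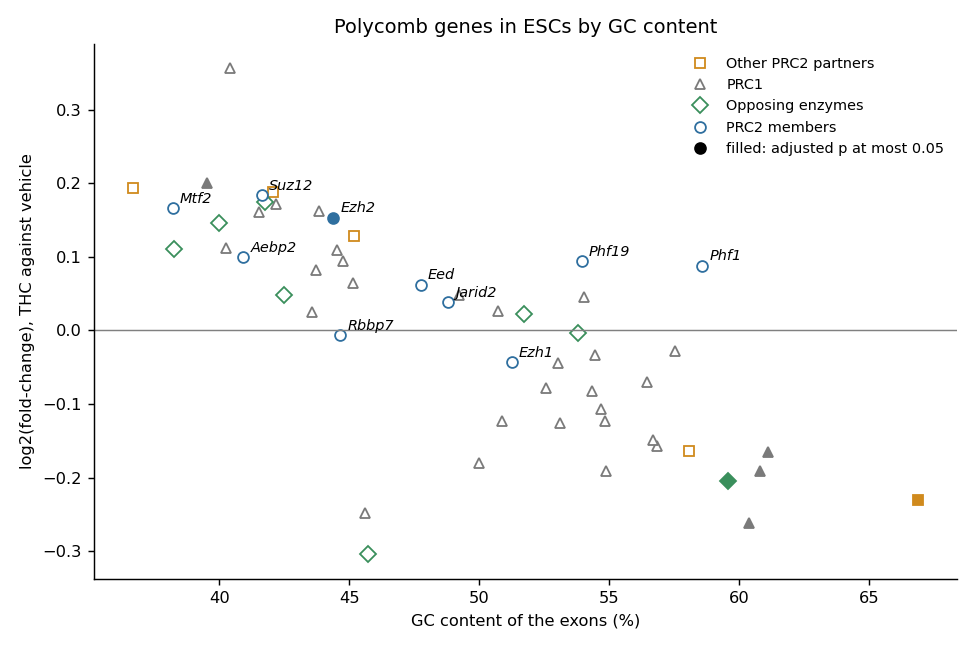
The log2(fold-change) of Δ9-THC against vehicle in ESCs (vertical axis) against the GC content of each gene's longest transcript in percent (horizontal axis, labelled there as the exons) for the PRC2 members, other PRC2 partners, PRC1 genes and opposing enzymes, with filled symbols for genes called by edgeR. The called genes with a lower level have a GC content from 59.6% to 66.9%, while the 2 called with a higher level, Ezh2 and Rnf2, stand at 44.4% and 39.5%.

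In EpiLCs no member changed by the test with Δ9-THC. Called members numbered 0 of 10 by edgeR (0% of all 13717 genes were called), and 2 members, Ezh1 and Phf1, had an unadjusted p under 0.05, as had 15.1% of all genes. DESeq2 called 0 of 10 members and 0.751% of the genes it tested. Exposed and vehicle libraries separated for 1 member, Ezh1, against 11.2% of all genes with all exposed libraries higher. The median log2(fold-change) was 0.053 over the members and 0.0030 over all genes, and -0.040 and -0.016 with the GC and length offsets. The log2(fold-change) also decreased with GC content in EpiLCs (Spearman's rho -0.30 across 13696 genes, as a description), and with the offsets Ezh2 stood at 0.0079.

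Ezh1 stood at 38.9, 40.1 and 36.7 CPM in vehicle EpiLCs and at 45.4, 44.5 and 48.2 CPM in exposed EpiLCs. All exposed libraries lay above the vehicle libraries, and the difference of 19.4% corresponded to a log2(fold-change) of 0.26 (SE 0.064). The adjusted p-value was 0.194 (edgeR), with an interval from 7.37% to 32.7% higher before adjustment for the number of genes. It was 0.0460 in a fit of all 12 libraries, which estimated the spread over both cell types and called 3.31% of genes. Ezh1 did not pass in the other fits. The adjusted p-value was 0.238 with DESeq2, and with edgeR 0.247 with the GC and length offsets and 0.339 to 0.453 with any 1 library left out. With the replicate number as a block the SE was 0.147 and the adjusted p-value 0.999 (edgeR). The summed naive markers of the same libraries ranged from 313 to 342 CPM with vehicle and from 336 to 368 CPM with Δ9-THC, and the summed formative markers from 1743 to 2074 and from 1777 to 2109 CPM, and their part was not tested.

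Phf1 had few counts in EpiLCs, 133, 81 and 90 with vehicle and 39, 76 and 62 with Δ9-THC. The groups overlapped through vehicle replicate 2 and Δ9-THC replicate 2. The log2(fold-change) of -0.74 (SE 0.30) had an adjusted p-value of 0.324 (edgeR) and an interval from -63.9% to -1.07%. Exons of other genes, Cuta among them, cover 39.3% of the exon length of Phf1 on GRCm38, and counting without strand cannot tell reads of such genes apart, so this value is uncertain.

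The remaining core subunits overlapped between exposures in EpiLCs. Ezh2 stood at 244, 221 and 240.4 CPM with vehicle and at 242, 269 and 248 CPM with Δ9-THC, and its log2(fold-change) of 0.11 had an interval from -4.35% to 21.2%. Suz12 stood at 191, 236 and 192 CPM with vehicle and at 253, 196 and 251 CPM with Δ9-THC. In Suz12 the high vehicle library and the low exposed library were both replicate 2, and the interval ran from -9.34% to 40.6%. Eed ranged from 92.8 to 124 CPM with vehicle and from 88.2 to 118 CPM with Δ9-THC, and Rbbp7 from 417 to 556 and from 342 to 495 CPM. Their intervals, from -26.3% to 17.9% and from -29.3% to 28.8%, leave changes of either sign and of sizeable extent undetected at this spread.

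Among the accessory subunits, Mtf2 stood at 174, 155 and 152 CPM in vehicle EpiLCs and at 168, 191 and 192 CPM in exposed EpiLCs. Exposed replicate 1 lay within the vehicle range, and the log2(fold-change) of 0.20 (SE 0.084) had an adjusted p-value of 0.343 (edgeR). Phf19 ranged from 8.90 to 10.5 CPM with vehicle and from 9.96 to 11.8 CPM with Δ9-THC. Jarid2 had nearly equal means of 307 ± 47.3 and 306 ± 54.3 CPM, with an interval as wide as -23.7% to 31.0%, and Aebp2 stood at 75.4 ± 4.50 and 73.1 ± 4.22 CPM, with an interval from -14.1% to 9.25%.

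Whether ESCs and EpiLCs responded differently to Δ9-THC was asked with an interaction term, fitted over the 4 groups and 12 libraries. No member passed (0 of 10, against 0.0322% of 12410 genes, by edgeR with Benjamini-Hochberg adjustment), and 2 had an unadjusted p under 0.05, as had 13.7% of genes. Ezh1 had the smallest p, with an effect in EpiLCs 0.31 above that in ESCs on the log2 scale (SE 0.086, adjusted p-value 0.141, edgeR). The difference for Phf1 was -0.81 (SE 0.35, adjusted p-value 0.334, edgeR). DESeq2 called 0 of 10 members by the same interaction and 1.07% of genes. For Ezh2, Suz12 and Mtf2 the differences between cell types were -0.031, 0.0072 and 0.045, with intervals of -0.21 to 0.15, -0.32 to 0.34 and -0.18 to 0.27.

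The balance between subunits that replace each other was taken as a ratio of CPM per kb within each library. The exact permutation tests of these ratios treat the libraries of a cell type as interchangeable, although same-numbered libraries deviated as mirror images. The Ezh1 to Ezh2 ratio was 0.147, 0.151 and 0.138 in vehicle ESCs and 0.125, 0.122 and 0.133 in exposed ESCs. The groups did not overlap, and the exact permutation test (two-sided) gave p = 0.1, the smallest that 3 against 3 libraries allow (0.2 after Benjamini-Hochberg adjustment over 4 ratio tests). This ratio was not recomputed with the GC and length offsets, under which the log2(fold-change) of Ezh1 and Ezh2 in ESCs was -0.0022 and 0.091. In EpiLCs the ratio was 0.143, 0.162 and 0.137 with vehicle and 0.168, 0.148 and 0.174 with Δ9-THC, with overlap and p = 0.2 (exact permutation test, adjusted 0.267). By summed exon length, the Ezh1 level was thus below the Ezh2 level in every library, by 5.73-fold to 8.17-fold. The size of this fold depends on the lengths used. Ezh1 and Ezh2 have 7440 and 6678 bases of summed exon, but 4207 and 2787 in their longest transcripts.

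The summed PRC2.1 accessory genes (Mtf2, Phf1 and Phf19) were divided by the summed PRC2.2 genes (Jarid2 and Aebp2). In ESCs this ratio was 1.58, 1.61 and 1.52 with vehicle and 1.69, 1.65 and 1.75 with Δ9-THC, again without overlap and at the smallest possible p of 0.1 (exact permutation test, adjusted 0.2). The ratio was not recomputed with the GC and length offsets, under which the log2(fold-change) of Mtf2, Jarid2 and Aebp2 in ESCs was -0.0054, 0.042 and -0.013. In EpiLCs the ratio was 0.930, 0.665 and 0.819 with vehicle and 0.758, 1.13 and 0.864 with Δ9-THC. These groups overlapped (p = 0.5, exact permutation test), and the difference of 0.18 on the log2 scale became -0.12 when levels were averaged as log2 values in place of sums. All ESC libraries were above all EpiLC libraries, and of the abundant accessory genes Mtf2 was lower in EpiLCs while Jarid2 overlapped.

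**Figure D5:**
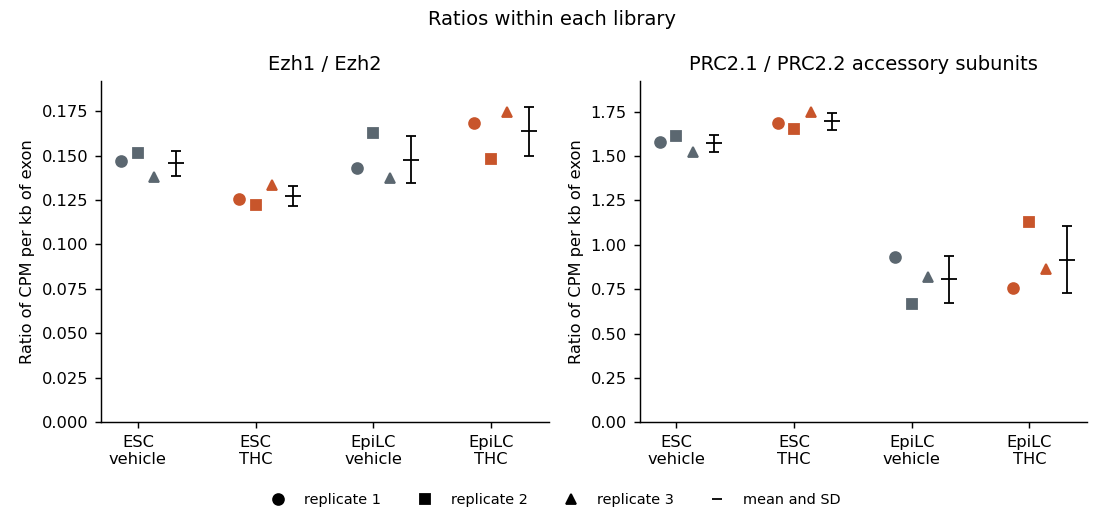
Ratios of CPM per kb within each library, Ezh1 to Ezh2 on the left and PRC2.1 to PRC2.2 accessory genes on the right, with 1 symbol per library shaped by replicate number, grey for vehicle and orange for Δ9-THC, and the mean and SD of 3 libraries. In ESCs exposed and vehicle libraries do not overlap in either ratio, and the accessory ratio is at least 1.52 in every ESC library and at most 1.13 in EpiLCs.

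Genes that act with or against PRC2 were examined as lists, to be read beside the 6.91% of all genes called in ESCs (3.37% higher and 3.55% lower) and the 0% called in EpiLCs. Of 5 other PRC2 partners, 1 fell in ESCs, Epop, which links PRC2.1 to elongin BC, from 259 ± 12.1 to 221 ± 9.64 CPM (log2(fold-change) -0.23, adjusted p-value 0.0420, edgeR), and 0 were called in EpiLCs. In EpiLCs 3 were above 0 and 2 below, and 1 had an unadjusted p under 0.05, against 15.1% of all genes. This was Lcorl, at 14.8 ± 0.455 and 20.3 ± 0.635 CPM (log2(fold-change) 0.45, adjusted p-value 0.144, edgeR). The median log2(fold-change) of this list was 0.13 in ESCs and 0.14 in EpiLCs. Rbbp4, the paralog of Rbbp7 in the core complex, stood at 672 ± 31.4 and 734 ± 31.8 CPM in ESCs and at 679 ± 68.7 and 643 ± 64.4 CPM in EpiLCs, and overlapped between exposures in both.

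PRC1 ubiquitinates histone H2A and acts with PRC2. Of its 32 genes, 1 rose and 3 fell in ESCs by edgeR, and 0 were called in EpiLCs (4 at an unadjusted p under 0.05, reached by 15.1% of all genes), with medians of -0.039 and 0.060. Rnf2, the main ubiquitin ligase of PRC1, rose from 153 ± 3.37 to 175 ± 4.38 CPM in ESCs (log2(fold-change) 0.20, adjusted p-value 0.0301, edgeR). Its paralog Ring1 stood at 7.78 ± 0.467 and 6.99 ± 0.494 CPM in ESCs. Phc2, a Polyhomeotic protein, fell by 0.26 on the log2 scale (adjusted p-value 0.0399, edgeR), and Fbrs and Fbrsl1, relatives of the PRC1 partner AUTS2, fell by 0.17 and 0.19 (adjusted p-values 0.0385 and 0.0301, edgeR).

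Of 8 measured enzymes that remove the Polycomb marks or their partners, 1 fell in ESCs and 0 were called in EpiLCs by edgeR, with medians of 0.035 and 0.22. In EpiLCs 7 were above 0 and 1 below, and 3 had an unadjusted p under 0.05, against 15.1% of all genes. Mysm1, 1 of these 3, stood at 32.4 ± 1.25 and 41.7 ± 1.45 CPM in EpiLCs (log2(fold-change) 0.36, adjusted p-value 0.144, edgeR). The authors report Mysm1 as significantly increased in exposed EpiLCs, under their own threshold on p-value and fold-change. The H3K27 demethylase Kdm6b fell from 102 ± 0.878 to 88.3 ± 0.819 CPM in ESCs (log2(fold-change) -0.20, adjusted p-value 0.0278, edgeR) and stood at 100.4 ± 5.07 and 104 ± 4.82 CPM in EpiLCs. Kdm6a, its X-linked paralog, stood at 128 ± 4.76 and 132 ± 5.27 CPM in ESCs and at 73.2 ± 15.4 and 87.4 ± 18.5 CPM in EpiLCs. The 5 genes of these lists that fell in ESCs had GC contents from 59.6% to 66.9%, and with the GC and length offsets none of them and no other gene of the lists was called by edgeR, Epop and Fbrs standing at 0.037 and 0.0087. Each of the 6 calls in these lists was also lost when any 1 ESC library was left out.

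Developmental genes listed as known Polycomb targets in ESCs were mostly at low levels. The mark H3K27me3 itself was not measured in these cells. Of 33 listed, 8 were measured in ESCs and 10 in EpiLCs, and 0 were called by edgeR in either (2 in each at an unadjusted p under 0.05, reached by 28.7% of all genes in ESCs and 15.1% in EpiLCs), with medians of -0.13 and 0.16. Tbx3 makes up most of the summed level in ESCs, at 263 ± 17.2 CPM with vehicle, and it is also a naive marker. The summed level in EpiLCs ranged from 39.5 to 51.9 CPM with vehicle and from 42.4 to 54.6 CPM with Δ9-THC.

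The genes most like each catalytic subunit were sought among 8131 genes by the root mean square difference of log2 CPM, centred on each gene's mean over the 12 libraries. Chek2 was nearest to Ezh2 at 0.023, followed by Eif3a at 0.039 and Tbcel at 0.041, against a median of 0.241 over all genes. Nearest to Ezh1 were Zfyve16 at 0.044, Wdr26 at 0.052 and Phkb at 0.056, against a median of 0.259. Chek2 had means of 70.8 and 76.2 CPM in vehicle and exposed ESCs and of 68.0 and 72.8 CPM in EpiLCs. Zfyve16 had means of 16.4 and 15.95 CPM in ESCs and of 15.4 and 19.3 CPM in EpiLCs. The named genes were picked for the smallest of 8131 distances in these same libraries. Their closeness to Ezh2 and Ezh1, also against the median, is set by that choice and is not a result of its own.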

How the data were processed

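The authors aligned poly(A) RNA-seq reads with STAR, keeping reads with 1 location, and counted them over exons with HTSeq without strand. They removed genes with low counts and adjusted the counts with ComBat-seq. The batches are not named in the sources used here, and the submitters name the genome as both mm10 and GRCm39. Each cell type has its own deposited table of whole-number adjusted counts. Their totals lie between 23427551 and 32096698 per library, and Phf1 has the fewest counts of the members, 39 to 133 per library. Libraries were grouped by label, and every column used was matched to 1 library. The 6 PGCLC samples were not analysed here.

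Genes with a total above 10 counts were tested with edgeR 4.0.16 in R 4.3.3 (quasi-likelihood test, TMM scaling), with Benjamini-Hochberg adjustment over all genes and a threshold of 0.05. Standard errors and 95% intervals are those implied by the F statistic. CPM used the TMM-scaled library size, and CPM per kb the summed exon length of GENCODE release 21. The likeness of genes used log2 CPM with a prior count of 2 and genes of at least 10 mean CPM in both tables. Alternatives were DESeq2 1.42.0, RLE scaling, leaving out the filter or asking for 10 counts in each library, a replicate block, offsets for GC content and length (splines, 5 degrees of freedom), the block with the offsets, fitting all 12 libraries at once, and omitting each library in turn.

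All 10 members were named, with Rbbp4, Kdm6a, Kdm6b, Ring1 and Rnf2, up to 6 genes per list past the threshold, and the 3 genes most like Ezh1 and Ezh2. Mysm1 and Lcorl were added after their values were seen. The members and lists were chosen with earlier results of these data known. Promoter sequences are from RefSeq. The replicate number was not used as a block in the values reported, although same-numbered libraries deviated together in opposite directions. The block is given as an alternative. Standard errors without it were smaller, for Ezh2 in ESCs 0.032 against 0.064 with the block. Genes called in ESCs numbered 906 without it and 5 with it, so the calls reported depend on leaving it out. The 3 replicates are biological per the labels, which do not say whether they were grown at separate times.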

Additional observations from a re-analysis of the deposited data

Results flagged for a closer look

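Fbrs had differences of opposite sign in the cell types. Every exposed ESC library was below every vehicle one (31.5 ± 0.215 against 28.05 ± 0.229 CPM) and every exposed EpiLC library was above (18.2 ± 0.845 against 20.3 ± 0.809 CPM), though in EpiLCs the test did not call it (adjusted p-value 0.352, edgeR). The EpiLC effect minus the ESC effect was 0.34 on the log2 scale, with an adjusted p-value of 0.101 in edgeR's interaction test, which misses the threshold of 0.05. With the GC and length offsets the ESC effect was 0.0087.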

How the results depend on the processing

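The count of called members in ESCs was 1 in the fit reported. It was 0 with the replicate block, with the GC and length offsets, with both, in the fit of all 12 libraries and with any 1 library left out (range 0 to 0), and 3 with DESeq2. The other Polycomb genes called in ESCs numbered 6, and 0 with the block, with the offsets, with both, in the fit of all 12 libraries and with any library left out (range 0 to 0). DESeq2 also called 6 other Polycomb genes in ESCs, though Fbrs was not among them (adjusted p-value 0.153, DESeq2). Called genes of all 13104 in ESCs fell from 906 to 5 with the block, 2 with the offsets and 0 to 1 with a library left out. In EpiLCs the fit of all 12 libraries called 1 member, Ezh1, and 5 other Polycomb genes, and DESeq2 called 3 of the latter. The fit of all 12 libraries called 411 of 12410 genes in EpiLCs (3.31%). The block rests on replicate numbers whose libraries deviated as mirror images. In EpiLCs 0 genes were called with and without it, and the genes at an unadjusted p under 0.05 fell from 2069 to 291. The filters moved none of the counts of called genes, and RLE scaling gave 7 other Polycomb genes and 878 genes in all in ESCs.

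With the offsets, alone and with the block, the sign turned in ESCs for Mtf2 (-0.0054 and -0.0054), Aebp2 (-0.013 and -0.013), Kdm6a (-0.038 and -0.038), Epop (0.037 and 0.037) and Fbrs (0.0087 and 0.0089), in EpiLCs for Ring1 (0.035 and 0.034), and in the difference between cell types for Rbbp7 (0.0061 and 0.0014) and Phf19 (-0.0014 and -0.0024). The PRC2.1 to PRC2.2 ratio in EpiLCs was -0.12 (log2) when levels were averaged as log2 values, against 0.18 as reported. Leaving out 1 library turned signs within these ranges: Rbbp7 in ESCs, -0.024 to 0.0052. In EpiLCs, Rbbp7 ranged from -0.16 to 0.083, Jarid2 from -0.10 to 0.13, Kdm6b from -0.0030 to 0.077, Ring1 from -0.18 to 0.028 and Rnf2 from -0.021 to 0.19. The difference between cell types ranged from -0.080 to 0.00049 for Ezh2, -0.057 to 0.12 for Suz12, -0.13 to 0.11 for Rbbp7, -0.014 to 0.11 for Phf19 and -0.11 to 0.12 for Jarid2. None of these values passed the test. The cause of these moves was not tested.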
